A study of Mus musculus with 31 samples.

Results

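DNA methylation was compared between 2 classes of mouse oocyte from secondary follicles, which the titles call Type5b (3 libraries, replicates 1, 2 and 3) and Type5a (5 libraries, replicates 1, 4, 5, 6 and 7). These are 8 of the 31 libraries of a series that follows oocytes through 9 stages of follicle growth, and they were taken by their titles. All 8 came from untreated oocytes of B6D2F1 mice, the cross of C57BL/6 and DBA/2. The labels give no age, oocyte size or number of oocytes for either class. A second label names embryo stages, contradicts the titles, differs within a class and was not used. Reduced representation bisulfite sequencing was the assay: MspI cuts DNA at CCGG, so mostly CpG-rich sequence is read, and bisulfite turns unmethylated cytosine into T. A level is the percentage of methylated reads over the CpG sites with at least 5 reads of a 100-bp tile holding at least 3 such sites, and coordinates of tiles are mm9.

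Mouse oocytes begin growth with DNA that was stripped of most methylation in the early germ line. While the oocyte enlarges within its follicle, DNMT3A with its partner DNMT3L adds methyl groups to CpG sites, largely within transcribed gene bodies, and most CpG islands at gene starts stay unmethylated. The same wave lays down the maternal imprints, marks that silence or switch genes on the maternal copy after fertilisation. The comparison asks how far that wave moved within secondary follicles.

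Promoter sequences show the sites behind the gene results, and 4 that gave different readings are printed first. Each is the 250 bases before a RefSeq start, read 5′ to 3′ on the strand of the gene (GRCm38.p6), and capitals mark the CpG sites with at least 5 reads in at least 2 libraries of each class. Mcts2, the imprinted retrogene, is shown as a site of partial levels in Type5a, and Blmh, which codes for bleomycin hydrolase, as a switch from low to high. Selenoh, which codes for a selenoprotein of the nucleus, was chosen after its values were seen. Every site read there had a partial mean level over the Type5b libraries, which differed widely. Uhrf1, which codes for the protein that brings the maintenance enzyme DNMT1 to replicated DNA, is shown as an island without methylation in either class.

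Mcts2: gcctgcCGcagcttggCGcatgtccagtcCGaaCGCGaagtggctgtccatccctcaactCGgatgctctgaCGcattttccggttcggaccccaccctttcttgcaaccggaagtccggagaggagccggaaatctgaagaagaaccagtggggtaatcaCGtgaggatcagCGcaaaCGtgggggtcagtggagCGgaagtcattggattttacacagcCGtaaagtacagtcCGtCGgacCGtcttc
Blmh: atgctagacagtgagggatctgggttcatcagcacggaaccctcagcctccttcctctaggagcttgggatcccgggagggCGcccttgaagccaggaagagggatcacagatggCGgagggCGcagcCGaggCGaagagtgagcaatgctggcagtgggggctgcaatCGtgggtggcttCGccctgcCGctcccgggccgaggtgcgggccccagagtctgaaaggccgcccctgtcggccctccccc
Selenoh: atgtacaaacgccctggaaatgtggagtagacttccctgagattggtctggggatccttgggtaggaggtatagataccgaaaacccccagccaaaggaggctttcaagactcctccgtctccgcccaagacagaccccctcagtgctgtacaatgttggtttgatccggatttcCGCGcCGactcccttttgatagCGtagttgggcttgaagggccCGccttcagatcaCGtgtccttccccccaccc
Uhrf1: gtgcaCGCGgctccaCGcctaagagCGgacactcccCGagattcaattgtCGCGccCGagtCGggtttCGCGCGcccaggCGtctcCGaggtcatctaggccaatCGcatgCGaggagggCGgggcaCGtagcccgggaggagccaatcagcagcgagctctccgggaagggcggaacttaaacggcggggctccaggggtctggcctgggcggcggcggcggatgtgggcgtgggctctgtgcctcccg

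In Mcts2 15 of the 20 CpG sites were read, and their mean levels ran from 10.8 to 70.3% in Type5a and from 66.7 to 100% in Type5b. In Blmh 8 of 15 sites were read, with 0 to 22.7% in Type5a and 85.4 to 100% in Type5b. All 6 sites read of 11 in Selenoh were at 0% in Type5a and had means of 37.9 to 59.9% in Type5b. The Type5b libraries disagreed there. The 2 tiles holding these sites read 61.8, 19.7 and 95.4% and 52.4, 7.69 and 91.8% in replicates 1, 2 and 3. All 18 sites read of 30 in Uhrf1 were at 0% in both classes. Differences between single sites were not tested.

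Depth overlapped between the classes. Reads over sites numbered 12808322 to 38682543 per Type5a library and 21578478 to 38713327 per Type5b library, with 397614 to 775364 and 432175 to 614546 sites at 5 reads or more. The median site had 13 to 25 reads in Type5a and 16 to 21 in Type5b. Cell type markers could not be read from DNA, and the measure of DNA from other cells was the X measure, the level of CpG-dense X tiles minus that of CpG-dense autosomal tiles, since islands of the inactive X are methylated in female somatic cells. It was -3.86, -3.66, 0.978, -3.73 and 3.23 points in Type5a replicates 1, 4, 5, 6 and 7, and -6.67, -3.31 and -2.54 points in Type5b. Type5a replicates 5 and 7 therefore stand apart from the other 6, and counts are also given without them. The labels do not say that libraries came from separate animals, so the p-values rest on a spread between libraries that may be technical only.

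Highly methylated tiles were more frequent in Type5b. Over the 20126 tiles measured in all 8 libraries, the share at 80% or more was 3.95, 3.47, 4.85, 4.34 and 6.64% in Type5a. It was 13.1, 9.84 and 10.7% in Type5b. Each Type5b library lay above each Type5a library. The means were 4.65% ± 1.22 (SD, n = 5) and 11.2% ± 1.68 (SD, n = 3), a difference of 6.56 points (exact two-sided permutation p = 0.0357, the smallest that 3 against 5 libraries allow; adjusted 0.25 over 7 library measures).

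**Figure D1:**
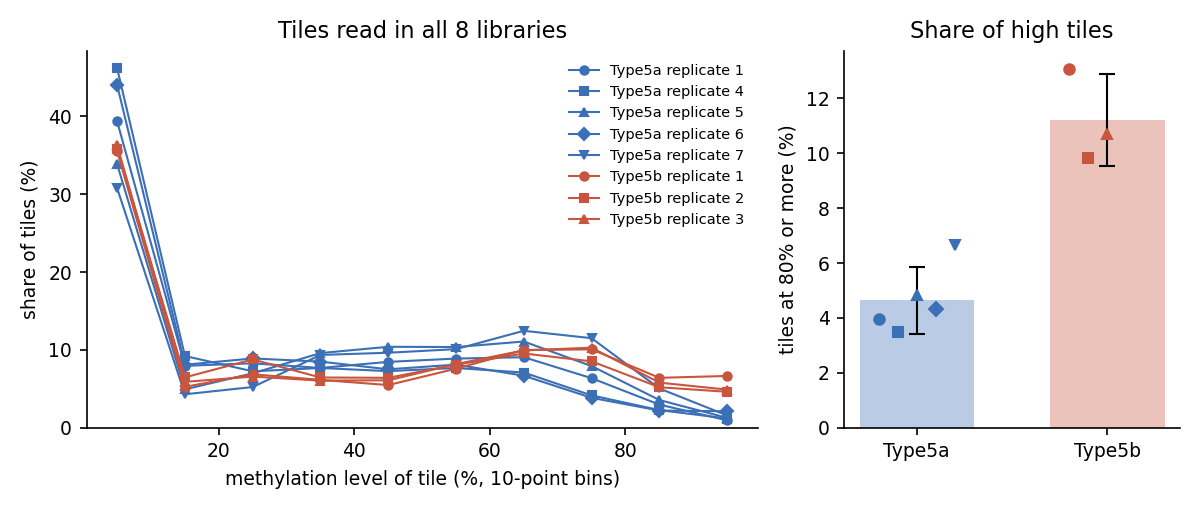
Left, the share of the 20126 tiles measured in all 8 libraries (%) against tile level (%, 10-point bins), 1 line per library; right, the share of those tiles at 80% or more, with bars for the mean, error bars for the SD and 1 point per library. The 3 Type5b points (9.84 to 13.1%) lie above the 5 Type5a points (3.47 to 6.64%).

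The mean level separated the classes less. It was 29.2, 24.5, 34.0, 25.7 and 38.0% in the Type5a libraries and 37.5, 34.6 and 36.0% in the Type5b libraries. The highest value belonged to a Type5a library, replicate 7, so the classes overlapped. The difference was 5.75 points (30.3% ± 5.65 against 36.1% ± 1.47; exact two-sided permutation p = 0.179, adjusted 0.417). Tiles under 20% made up 45.7% ± 8.63 in Type5a and 41.7% ± 0.859 in Type5b, and tiles from 20 to under 80% made up 49.6% ± 7.58 and 47.1% ± 0.841 (both adjusted p = 0.792, exact permutation tests). The 3 Type5b libraries lay close together in each of these measures, while the 5 Type5a libraries spread over several points.

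Single tiles went mostly one way. Of 65395 tiles measured in at least 2 libraries of each class, 3113 were called higher in Type5b, which is 4.76% of those tested, and 92 were called lower, which is 0.141%. A call needed an adjusted p under 0.05 in a quasi-binomial model of the reads with Benjamini-Hochberg adjustment over all tiles, and a difference of at least 20 points. Higher tiles were 97.1% of the calls and differed by a median of 59.2 points, lower tiles by a median of -34.8 points, and the median over all tiles tested was 0. No overlap between libraries was seen in 2660 of the higher tiles (85.4%) and in 51 of the lower ones (55.4%), beside 12.4% of all tiles tested. An unadjusted p under 0.05 was reached by 17.3% of tiles, and by 9.27% of unchanged tiles in simulated data. Without the 2 libraries of X measure above 0, 2474 tiles were called higher and 36 lower, and 1892 of the 3113 were among them (60.8%).

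The number called depended on the model and on single libraries. Fitted on these 2 classes alone, the model called 764 tiles higher and 17 lower. limma on logit levels called 1135 and 19. edgeR's quasi-likelihood test on methylated and unmethylated reads called 2 and 0, with 3976 tiles higher and 680 lower at an unadjusted p under 0.05. Without Type5b replicate 1 the main model called 874 higher, and without Type5b replicate 3 it called 1967.

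Called tiles held high levels by Type5b, which the call itself favours. Of the 3113 higher tiles, 1637 (52.6%) were under 20% in Type5a, 1274 lay from 20 to under 50%, and 202 were at 50% or more. In Type5b 1904 (61.2%) were at 80% or more.

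Libraries that took no part in a call were read to see the size of the difference apart from the choice. For each of the 15 pairs of 1 Type5b and 1 Type5a library, tiles were called without the pair. The 545 to 2516 tiles called higher differed by 59.5 points on average in the calling libraries. Of these, 256 to 1901 were read in the pair left out, where they differed by 44.7 points (range 26.5 to 64.3). In each pair, 77.7 to 95.6% of the tiles read were higher in the Type5b library. The 8 to 90 tiles called lower differed by -37.0 points in the calling libraries. Only 5 to 60 of them were read in the pair left out, with a difference of 3.52 points (range -6.81 to 16.9). Losses thus did not keep their direction on average.

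**Figure D2:**
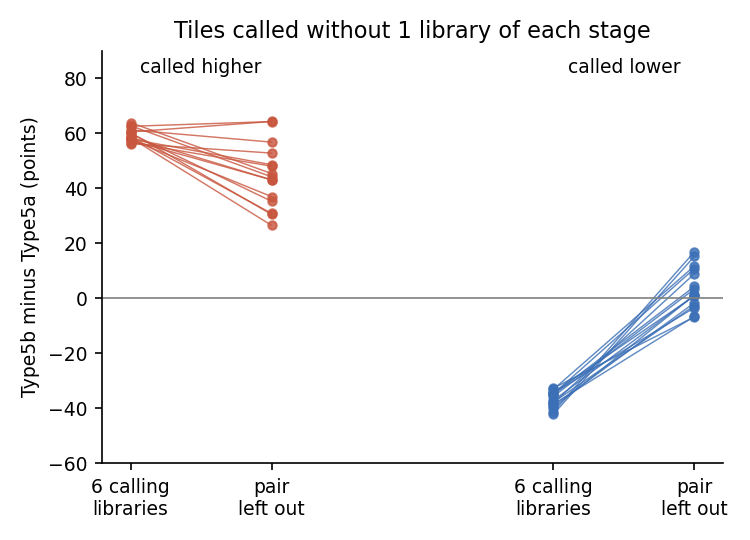
Difference between Type5b and Type5a (percentage points, vertical axis) in tiles called higher (left) and lower (right), in the 6 libraries that called them and in the pair left out; each line is 1 of the 15 pairs. Higher tiles stay between 26.5 and 64.3 points in the pair left out, and lower tiles scatter around 0.

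Most tiles called higher were highly methylated at the end of growth. Of 10084 tested tiles at 80% or more in Type7, the last stage of the series (antral follicles), 2398 were called higher (23.8%). All 10084 averaged 41.2% in Type5a and 72.1% in Type5b. Of 28807 tiles under 20% in Type7, 44 were called (0.153%). The classes between had 0.828% (20 to under 50%) and 1.53% (50 to under 80%). Type7 libraries were not part of the contrast, though they share its estimate of the spread.

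A subset chosen only by other stages shows how far the wave had come. The 5447 tiles under 10% in Type2 (primordial follicles) and at 80% or more in Type7 had mean levels of 29.2, 10.8, 22.5, 16.2 and 32.2% in the Type5a libraries. They had 74.3, 63.1 and 65.9% in the Type5b libraries. Every Type5b library lay above every Type5a library. Among these tiles 2000 were called higher (36.7%, beside 4.76% of all). In Type5a 45% of them were under 20%, 54.8% lay from 20 to under 80% and 0.202% were at 80% or more. In Type5b the shares were 8.21, 47.9 and 43.9%. The share under 20% was thus smaller and the share at 80% or more larger in Type5b, and the share between them differed less.

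CpG density divided the tiles as well. Density counts the CpG sites that the libraries together list in the 1 kb centred on a tile. Tiles with fewer than 10 sites per kb were called higher in 9.51% of cases, and the share fell through 6.59, 3.08 and 1.49% to 0.827% at 60 or more. Among tiles at 80% or more in Type7 the same shares were 29.0, 25.7, 17.4, 14.4 and 20.5%, the last over 127 tiles. Dense tiles lay below poor tiles by 15.6 points in Type5a (-15.6 ± 7.09, n = 5) and by 25.5 points in Type5b (-25.5 ± 1.19, n = 3). That change of -9.88 points had an exact two-sided permutation p of 0.107 (adjusted 0.375). The values were -13.9, -7.94 and -11.0 in Type5a replicates 1, 4 and 6, and -19.4 and -25.8 in replicates 5 and 7, of X measure above 0. They were -26.9, -25.0 and -24.6 in Type5b.

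**Figure D3:**
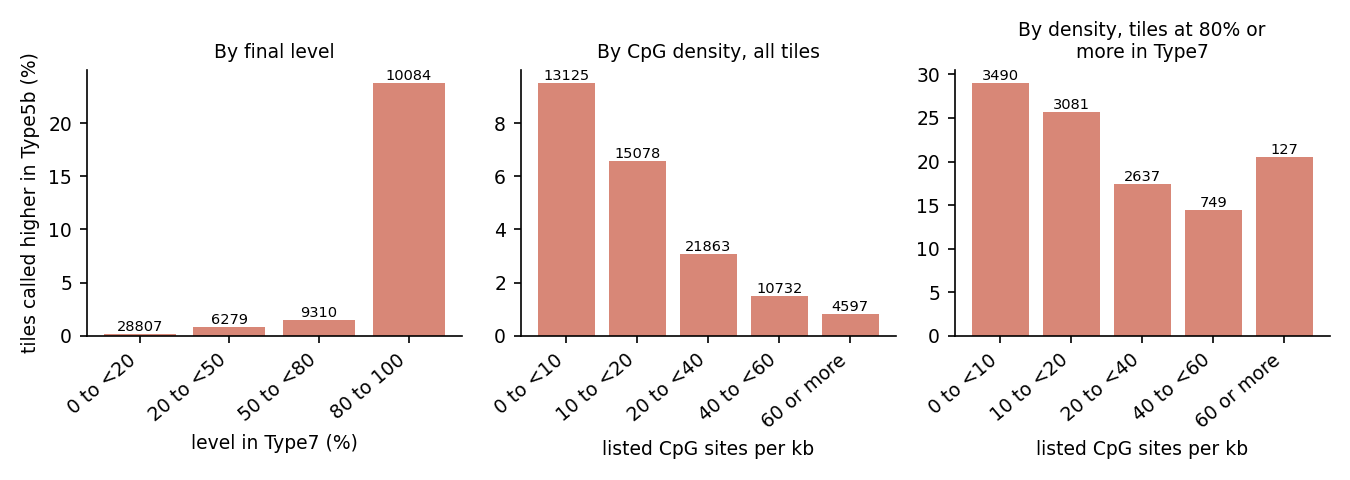
Share of tested tiles called higher in Type5b (%), by level in Type7 (left), by listed CpG sites per kb over all tiles (middle) and by density among tiles at 80% or more in Type7 (right); numbers above bars are tiles. The bar at 80% or more in Type7 reaches 23.8%. From the lowest density to 40 to under 60 sites per kb the bars fall from 9.51 to 1.49% over all tiles and from 29.0 to 14.4% among tiles at 80% or more in Type7.

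Chromosomes differed in the share called. Chromosome 8 had 7.97%, chromosome 5 7.19% and chromosome 19 6.40%, while chromosome 14 had 2.93%, chromosome 3 2.94% and the X 3.05%. None of 13 tiles mapped to the Y was called, and they are not taken as Y methylation, since oocytes come from females. The level of X tiles minus that of autosomal tiles was 13.2 ± 1.81 points in Type5a and 13.4 ± 0.283 in Type5b (difference 0.183, adjusted exact permutation p = 0.893). Methylation that reads differently on the 2 strands of a CpG can mark sites copied or written on one strand only. A site counted as discordant if its 2 strands, each thinned to 5 reads, differed by 60 points or more. With so few reads, sampling alone can give such a gap, so the share is not that of one-sided sites. Discordant sites made up 11.5% ± 2.35 in Type5a and 12.4% ± 1.68 in Type5b (difference 0.842 points, adjusted exact permutation p = 0.792).

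Gains lay in gene bodies more often than at gene starts. Genes were placed in mm9 where the CpG spacing of a RefSeq promoter matched the listed sites, which succeeded for 8393 of 26794 genes (31.3%). Of 5633 promoter tiles 72 were called higher (1.28%) and 0 lower. Placing needed at least 4 listed CpG sites, and dense tiles in general were also seldom called (1.49% at 40 to under 60 sites per kb). Of 15106 tiles in gene bodies 1139 were called higher (7.54%) and 12 lower. Tiles in neither class had 4.26%, and these include tiles of genes that were not placed. The mean promoter level was 1.51% in Type5a and 2.60% in Type5b. Most promoters therefore stayed low in both classes, and 761 of 5077 genes with body tiles held at least 1 call. Among tiles at 80% or more in Type7 the order of shares changed. There 50 of 122 promoter tiles were called (41.0%), 31.3% of body tiles and 20.5% of the rest. Mean levels in these tiles went from 11.5 to 46.2% in promoters, 31.8 to 73.0% in bodies and 45.6 to 72.1% in the rest. Bodies still gained most points (41.2, beside 34.7 in promoters and 26.6 in the rest).

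Levels were higher away from the start on both sides, in Type5b more so downstream. Sides were set by distance from the nearest placed start alone, so a downstream tile may lie beyond the gene. From 2 to 20 kb downstream 447 of 3794 tiles were called higher (11.8%), against 217 of 3018 the same distance upstream (7.19%). Mean levels in Type5a replicates 1, 4, 5, 6 and 7 were 14.8, 6.66, 16.0, 11.1 and 21% downstream and 13.5, 8.35, 16.3, 11.7 and 19.9% upstream. In Type5b replicates 1, 2 and 3 they were 34.5, 28.9 and 30.8% downstream and 26.2, 22.4 and 23.1% upstream. The downstream side thus exceeded the upstream side by -0.0248 ± 1.25 points in Type5a and by 7.48 ± 0.925 in Type5b, without overlap. This measure was chosen after its values were seen and has no test. Within 500 bp of a start 1.07 to 1.36% of tiles were called. Among tiles at 80% or more in Type7 the shares called were close, 32.6% downstream and 31.7% upstream.

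**Figure D4:**
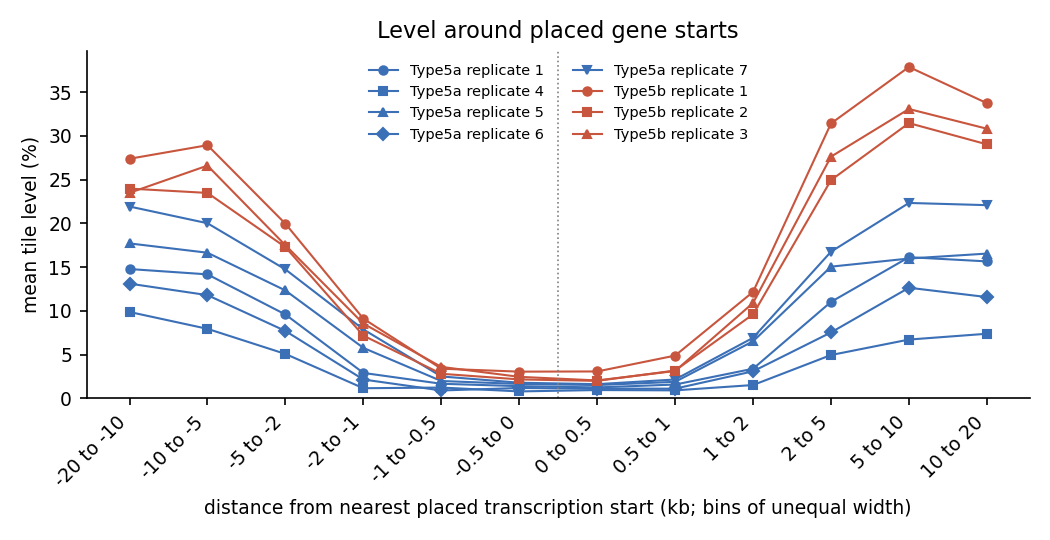
Mean tile level (%) against distance from the nearest placed transcription start (kb, bins of unequal width, negative upstream), 1 line per library. The Type5b lines pull away from Type5a beyond about 1 kb downstream and 2 kb upstream, more on the downstream side (7.48 points above upstream in Type5b, -0.0248 in Type5a). From 1 to 2 kb upstream Type5a replicate 7 (7.88%) lies above Type5b replicate 2 (7.17%).

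Called promoters were few, and their mean levels in Type5b were often partial. The 72 tiles belonged to 58 genes among 3855 promoters with a tested tile. Their median Type5b level was 51.6%, beside 86.1% in other called tiles, and 19 were at 80% or more. Of the 61 measured in at least 2 Type7 libraries, 50 reached 80% there. Some partial means average libraries that disagree. Ctxn1 read 100, 0 and 0% and Usp46 97.4, 24.6 and 0% in Type5b replicates 1, 2 and 3. Others rest on libraries close together, as Actr1b does (28.6, 23.1 and 24.5%). A partial mean is therefore not always a partial level within a library.

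Blmh gave one of the clearest switches. Its tile (chr11:76759001-76759100) read 20.4, 0 and 8.19% in Type5a replicates 1, 5 and 7, and 99.8, 91.5 and 95.1% in Type5b (adjusted p = 8.82e-05, quasi-binomial model). The level was 28.3% ± 40.1 in Type6 (SD, n = 2) and 98.2% in Type7. The Type6 mean lay well below both neighbours, but its 2 libraries differed widely. Nqo2, which codes for a quinone reductase, read 0, 0, 0 and 2.84% in Type5a replicates 1, 4, 5 and 7 and 82.3, 92.2 and 40% in Type5b (chr13:34056501-34056600, adjusted p = 8.94e-05). The classes lay apart, and Type5b replicate 3 was the lowest of its class. Trip6, an adaptor protein with LIM domains, was at 0% in all 4 Type5a libraries that measured it and at 98.8 and 82.3% in Type5b replicates 1 and 3 (adjusted p = 0.00832, and 0.0859 once both libraries of positive X measure were dropped). It was chosen after its values were seen.

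Other promoters moved part of the way on average. Actr1b, an actin-related subunit of dynactin, read 1.56, 0, 2.45 and 0% in Type5a and 28.6, 23.1 and 24.5% in Type5b (chr1:36766801-36766900, adjusted p = 7.26e-05). It read 0% in the 1 Type6 library and 100% in the 1 Type7 library that measured it. Pde8b, a phosphodiesterase that breaks down cAMP, read 7.57, 1.29, 4.55, 0 and 0.0733% in Type5a and 83, 27.7 and 48.2% in Type5b (chr13:95993101-95993200, adjusted p = 0.000494). Its 3 Type5b libraries spread widely, and the level was 97.2% in Type6 and 23.1% in the 1 Type7 library that measured it. The adjoining Pde8b promoter tile, chr13:95993201-95993300, went from 0.112 to 72.7% (adjusted p = 0.000927) and read 98.8% in Type7 (n = 2). Selenoh had 2 called tiles, with 61.8, 19.7 and 95.4% in Type5b at the first (adjusted p = 0.00735), where Type5a read 5, 0, 0.633 and 0%. Both calls were lost without Type5a replicate 6 or Type5b replicate 1.

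The rest of the 10 promoter tiles with the smallest p among those without overlap, the rule that named Blmh, Nqo2, Actr1b and Pde8b, followed the same pattern. Rsph3b, a gene of the radial spoke of cilia, rose from 0.499 to 25.5%, resting on 45.7 and 5.35% in 2 Type5b libraries. Serhl rose from 16.8 to 77.6%, D130017N08Rik from 6.09 to 91.5%, Gm26689 from 26.0 to 91.5%, BC034090 from 1.45 to 47.3% and Tmem37 from 0.551 to 61.6%. Several of these means rest on 2 Type5b libraries. Kdm2b, which codes for a histone demethylase that binds CpG islands, had 2 called tiles at a start shared with a noncoding RNA. They went from 25.7 to 82.2% (adjusted p = 0.0055, quasi-binomial model) and from 13.2 to 48.5% (adjusted p = 0.0187). The classes overlapped at the second, with 45.2% in Type5a replicate 1 and 35.9% in Type5b replicate 3. Kdm2b was also chosen after its values were seen. Both calls were lost without Type5b replicate 1, and the second also without Type5a replicate 6 or 7 or without the 2 libraries of X measure above 0.

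Some genes with maternal imprints gained methylation. Of a list of 20 imprinted genes with maternal marks, chosen with earlier results of these data known, 8 had tested tiles of a placed promoter or body, and 4 had at least 1 called higher (Zrsr1, Mcts2, Igf2r and Nnat). None had a tile called lower. Among all placed genes, 58 of 3855 with promoter tiles and 761 of 5077 with body tiles had a call, and genes with more tiles have more chances of one. With 8 genes read, nothing is claimed for the list as a whole.

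Zrsr1, a paternally expressed splicing factor gene inside an intron of Commd1, gained at its start and body. Its promoter tile (chr11:22872001-22872100) read 13.9, 7.18, 0, 2.76 and 43.6% in Type5a replicates 1, 4, 5, 6 and 7, and 100, 72.9 and 98.4% in Type5b (adjusted p = 0.00104). The classes did not overlap, and Type5a replicate 7 was highest within its class. Type2 was at 0.0705% and Type6 and Type7 at 98.4 and 97.0%. Of its 6 body tiles 4 were called, and these also lie within Commd1. Levels at the body tile next to the start went from 9.00 to 100% (adjusted p = 0.000476). The tile at chr11:22874001-22874100 (adjusted p = 0.0376) lost its call without the 2 libraries of X measure above 0, and without Type5a replicate 4 or 5 or Type5b replicate 1 or 3. The call at chr11:22873101-22873200 was lost without Type5a replicate 6 or Type5b replicate 1, and that at chr11:22873901-22874000 without Type5b replicate 3.

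Mcts2, expressed from the paternal copy and lying within H13, had 2 promoter tiles. At chr2:152512601-152512700 Type5a replicates 1, 6 and 7 read 41.5, 36.3 and 50.4% and Type5b read 92.3, 92.7 and 100% (adjusted p = 0.00931, and 0.057 without Type5b replicate 3). At chr2:152512801-152512900 Type5a read 26.8, 29.0, 47.6, 28.1 and 44.5% and Type5b read 100, 78.6 and 92.6%, a difference of 55.2 points that missed the threshold (adjusted p = 0.162). Levels in Type5a were already well above the 1.37% of Type2 in every library.

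Igf2r, the receptor that takes IGF2 out of circulation, carries its maternal mark inside the gene and not at its own start. The promoter tile was at 0% in Type5a and 0.0839% in Type5b (adjusted p = 0.943). About 27 to 28 kb into the gene 3 of 9 body tiles were called. At chr17:12935101-12935200, 27.4 kb from the start, Type5a replicates 1, 4 and 7 read 44, 11.1 and 60% and Type5b read 93.5, 96.1 and 94.6% (adjusted p = 0.00539). The 3 tiles read 100% in the 1 or 2 Type7 libraries that measured them. Each of these calls was lost on leaving out Type5a replicate 4, and also on leaving out Type5b replicate 1.

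Nnat, a small membrane protein gene within an intron of Blcap, had 2 of 4 body tiles called (adjusted p = 0.0257 and 0.0244), and both lost the call without Type5a replicate 1 or 7. The first read 37.1, 44.2 and 38.7% in Type5a and 87.3 and 51.2% in Type5b. The second read 0, 0 and 8.16% in Type5a and 80.2 and 6.98% in Type5b, so its classes overlapped. The promoter tile read 40.2, 53.8 and 22.5% in Type5a and 81.1 and 39.5% in Type5b, with overlap (adjusted p = 0.132). The Type5b libraries thus differed widely among themselves at Nnat.

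Other imprinted genes had no call. Snrpn, a splicing factor gene of the Prader-Willi region, read 0 and 72.2% in the 2 Type5a libraries that measured its promoter and 79.8 and 88.1% in Type5b (adjusted p = 0.144). The Type5a values lie at opposite ends, and the higher one is from replicate 7. Grb10, a growth-restraining adaptor, was at 2.66% and 0% at its promoter, and none of its 8 body tiles was called. That promoter tile also read 0.159% ± 0.275 in Type7 (n = 3), so it gives no reading of when a maternal mark is laid. Gnas had 2 body tiles and Inpp5f 4, none called.

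**Figure D5:**
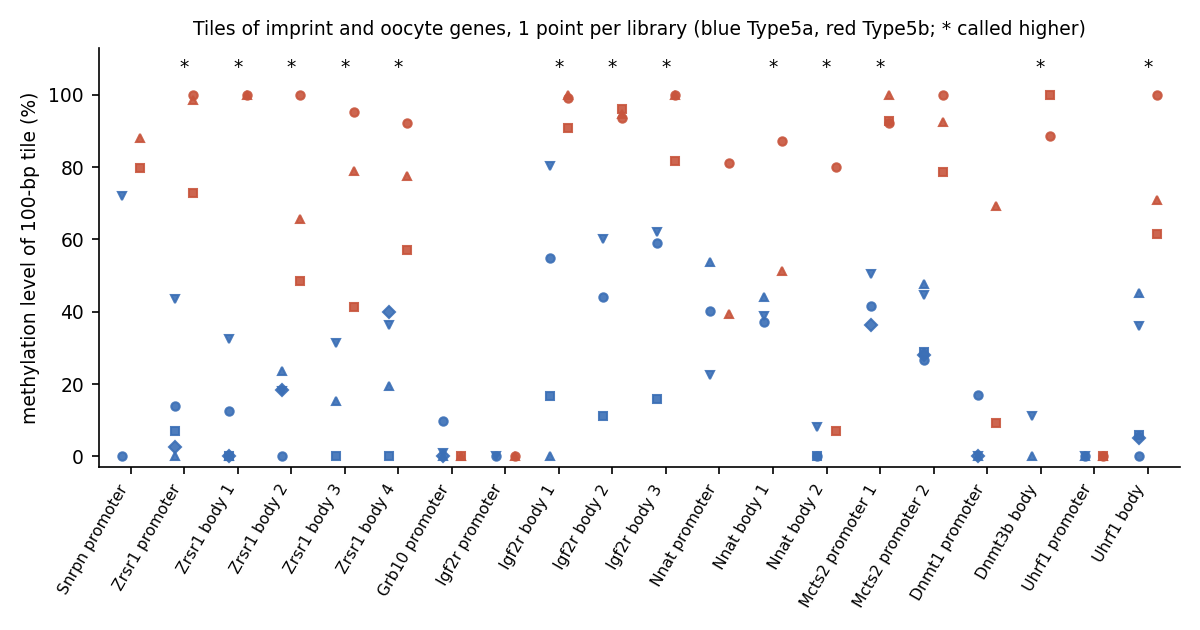
Methylation level (%) of tiles of imprinted and oocyte genes, 1 point per library (blue Type5a, red Type5b); an asterisk marks tiles called higher in Type5b. Zrsr1, Igf2r body and Mcts2 tiles separate the classes, while the Igf2r, Grb10 and Uhrf1 promoters stay near 0.

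Genes of the methylation machinery were read as tiles, not as expression. Of a list of 15 oocyte genes, also chosen with earlier results known, 6 had tiles. Dnmt3b, a de novo methyltransferase, had its 1 body tile called: 0 and 11.3% in Type5a and 88.5 and 100% in Type5b (adjusted p = 0.00967). Uhrf1 had 1 of 2 body tiles called, 14.9 kb into the gene, with 0, 5.94, 45.3, 5.15 and 36.0% in Type5a and 100, 61.4 and 70.9% in Type5b (adjusted p = 0.0195). That call was lost without Type5a replicate 4 or Type5b replicate 1. Its promoter stayed at 0% in all 6 libraries that measured it. The promoter tile of Dnmt1, the maintenance methyltransferase, read 17, 0, 0 and 0% in Type5a and 9.29 and 69.1% in Type5b (adjusted p = 0.112, and 0.032 without Type5a replicate 1). Dnmt3a (4 body tiles), Setd2 (2), which marks transcribed gene bodies, and Kdm1b (1), a histone demethylase needed for some maternal imprints, had none called. When only the 2 classes were fitted, no tile of Zrsr1, Igf2r, Nnat, Uhrf1 or Dnmt3b passed.

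The clearest single tiles went from near absence to near completion. Among tiles measured in all 8 libraries without overlap, the smallest p belonged to chr13:55932301-55932400, with 3.08, 0, 0, 0 and 0% in Type5a and 92.6, 100 and 100% in Type5b (adjusted p = 7.44e-09). Type6 was at 69.6% and Type7 at 100%. A tile within Acvr2b, an activin receptor gene (chr9:119337101-119337200), read 13.6, 9.05, 22.7, 9.77 and 37.9% in Type5a and 98.9, 100 and 100% in Type5b (adjusted p = 8.03e-07). It stayed high, at 92.9% in Type6 and 100% in Type7. Lrrc8d, a subunit of the volume-regulated anion channel, held a tile at 0% in all 5 Type5a libraries and at 100% in all 3 Type5b libraries (chr5:106161201-106161300, adjusted p = 8.92e-06). That tile then read 58.3% ± 52.0 in Type6 (SD, n = 3), a wide spread, and 21.5% ± 3.52 in Type7 (n = 2), unlike the tiles of chr13 and Acvr2b.

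Most of the other 7 named gains ended high. chr11:101122101-101122200 went from 4.99 to 63.2%, chr11:97520301-97520400 from 1.60 to 60.5%, chrX:57431801-57431900 from 6.27 to 70.2% and chr2:30242301-30242400 from 7.99 to 85.6%. chr3:95959401-95959500 went from 19.8 to 91.2% and chr14:31165501-31165600 from 5.5 to 88.5%. These 6 read 95.7 to 100% in Type7. chr10:79689901-79690000 went from 3.30 to 49.5% and read 36.0% in Type7.

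Gains came in runs. Of tested tiles lying 100 to 200 bp after a tile called higher, 60.6% were called, against 1.43% after an uncalled tile. At 200 bp to 1 kb the shares were 34.3 and 1.41%, at 5 to 20 kb 30.4 and 6.62%, and at 20 to 100 kb 19.4 and 6.65%. By 100 to 500 kb they were 7.48 and 6.34%. Every pair of tested tiles at a distance was counted, so stretches with many called tiles weigh most. Neighbouring tiles are not independent, and whether these shares hold across the genome was not tested.

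Some windows of 100 kb held dense runs. In chr8:126000001-126100000, which holds Gas8 (a gene of motile cilia), 29 of 44 tiles were called higher (65.9%), and the mean level went from 12.0 to 53.4%. In chr15:76000001-76100000 10 of 22 were called (45.5%; 14.1 to 61.8%). In chr19:7000001-7100000 14 of 32 were called (43.8%; 7.69 to 38.0%), some within Bad (a promoter of cell death), Plcb3 (a phospholipase) and Vegfb (a growth factor). In chr10:79600001-79700000, where Cbarp was placed, 6 of 21 were called (28.6%; 5.37 to 32.4%).

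Other windows with many tiles had no tile called higher. These were 45 of the 115 windows with at least 20 tiles. Of them, the one with most tiles, chr3:93000001-93100000 (89 tiles), averaged 28.1% in Type5a and 25.4% in Type5b. chr6:47600001-47700000 (75 tiles) was low in both (2.97 and 1.90%), and chr2:80600001-80700000 (36 tiles) averaged 57.1 and 66.3%.

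Gains mostly lasted. Of 2822 higher tiles measured in Type6, 2113 (74.9%) were at 80% or more, 236 (8.36%) lay at least 20 points below Type5b, and 73 were under 20%. Of 2636 measured in Type7, 2398 (91.0%) were at 80% or more, 76 (2.88%) lay at least 20 points lower, and 44 were under 20%. The called tiles averaged 6.43% in Type2, 14.7% in Type3b and 21.9% ± 9.78 in Type4, beside 20.7% ± 7.98 in Type5a. They averaged 78.9% ± 6.50 in Type5b, 84.6% ± 1.49 in Type6 and 93.1% ± 0.730 in Type7. Type4 and Type5a lay within each other's spread in these tiles, and the step stood between Type5a and Type5b, where the tiles were chosen.

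Losses were fewer and less steady. The 5 named ones were chr4:91567301-91567400 (39.9 to 17%), chrX:86243401-86243500 (38.0 to 16.0%), a tile within Ror2, chr6:60262601-60262700 (34.3 to 4.47%) and chr9:3175401-3175500 (75.1 to 39.8%). The tile within Ror2, a receptor for WNT5A (chr13:53314501-53314600), read 27.9, 14.8, 54.7, 100 and 40.3% in Type5a and 0, 0 and 0.626% in Type5b (adjusted p = 0.0258). Each of the 5 lost its call under several alternatives. Of 80 lower tiles measured in Type6, 39 were again at least 20 points above Type5b. Only 14 of the 92 (15.2%) were called without the 2 libraries of X measure above 0.

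Letters around the CpG went with the level within a tile. In the tiles low in Type2 and high in Type7, TCGA sites lay below the other sites of their tile by 5.57 points in Type5a (-5.57 ± 1.34, n = 5) and by 9.07 points in Type5b (-9.07 ± 1.23, n = 3). The libraries of the classes did not overlap. The deficit was -2.47 points in Type4, -2.93 in Type6 and -1.57 in Type7. The context was chosen after its values were seen and has no test. A C after the CpG went with higher levels (3.03 points in Type5b, 1.80 in Type5a) and an A with lower ones (-2.60 and -2.11). CCGG sites, where MspI cuts, lay 1.56 points above their tile in Type5a and -2.15 points from it in Type5b. The part of end repair in this was not tested.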

How the data were processed

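RRBS libraries of 31 oocyte samples were analysed, and 3 Type5b and 5 Type5a libraries were compared. Per the labels' protocols, oocyte DNA was cut with MspI, given premethylated adaptors, treated with bisulfite, enriched by PCR and selected by size on a gel. BSMAP 2.89 and build mm9 were used, per the submitters' processing notes. How methylation was called and reads were trimmed is not given in the sources used here. The deposited files list, per CpG site, the count of total and of methylated reads, in all and per strand. The authors also deposited the methylated fraction of each site, and levels were recomputed from the counts. Reads carry no molecular identifiers, and a C-to-T variant of a parent strain would pass for an unmethylated site.

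Methylated and total reads were summed over sites with at least 5 reads into 100-bp tiles with at least 3 such sites. A quasi-binomial model with stage as factor was fitted to all 31 libraries. Its dispersion was floored at 1 and moderated over tiles by the method of limma's squeezeVar, the contrast was tested by an F test on the score statistic, and Benjamini-Hochberg adjustment ran over 65395 tiles. The score statistic replaced the likelihood ratio after a test on simulated data. There, 9.27% of unchanged tiles reached an unadjusted p under 0.05, more than the nominal rate. Of unchanged tiles 0.184% were called, higher and lower counted together. In the real data 4.76% were called higher and 0.141% lower. The simulated share covers both directions, so it cannot be set against the lower calls alone. How many of the losses were false calls was not tested. The 7 library measures were compared by exact two-sided permutation tests.

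Named tiles were the 10 higher and 5 lower with the smallest p among calls measured in all 8 libraries without overlap, at most 1 per 100 kb. Named windows of 100 kb held at least 20 tiles: the 5 with the highest share called, and the 3 with most tiles among those with none. One of the first 5 is not reported here. The members, lists and named genes were chosen with earlier results of these data known. Named promoter tiles, a rule added after the files were seen, are the 10 without overlap with the smallest p, at most 1 per 100 kb; Selenoh, Trip6 and Kdm2b were added by their values.

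The annotation given is RefSeq GRCm38.p6. The plan was to use genes only with an mm9 reference. After the files were seen, each RefSeq promoter (250 bases before to 50 after a start) was instead matched to the listed CpG sites by spacing and flanking bases. At least 4 sites, a single match and no misfit were required, no coordinate was converted, and gene ends, taken from GRCm38 lengths, are approximate. Of 9382 placed promoters compared with their neighbours, 9368 kept the GRCm38 order, so a few may be misplaced. limma 3.58.1 and edgeR 4.0.16 ran in R 4.3.3. All else ran in Python 3.11.15 with pandas 2.3.3, numpy 2.4.6 and scipy 1.17.1, and plots were drawn with matplotlib 3.10.9.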

Additional observations from a re-analysis of the deposited data

Results flagged for a closer look

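The 29 groups checked were of 4 or 5 Type5a values, from the library measures and the named tiles. In 4 of them, all of named tiles, a library stood apart from the others by its gap divided by the range. Chance flags about 1 in 20 groups. In each the level is low and the other libraries lie at or near 0. At chr13:55932301-55932400 the highest Type5a library read 3.08%. At the Rsph3b promoter it read 1.96%, at the Nqo2 promoter 2.84% and at the Tmem37 promoter 2.21%. All 4 tiles were called higher in Type5b.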

How the results depend on the processing

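No paired analysis was possible because the classes share only replicate number 1. Tiles called higher and lower were 3113 and 92. They were 1975 and 45 with at least 10 reads a site, 5794 and 176 with at least 2 sites a tile, 764 and 17 fitted on the 2 classes alone, 798 and 12 over tiles measured in all 8 libraries, 1135 and 19 by limma and 2 and 0 by edgeR. Tiles lower were 42 with at most 10 reads a site, 33 with a difference of at least 40 points, and 36 once both libraries of positive X measure were dropped. Leaving out each library in turn gave 874 to 2965 higher and 11 to 128 lower. The lowest higher counts came without Type5b replicate 1 (874) and Type5b replicate 3 (1967), and losses were 59 without Type5a replicate 7 and 58 without Type5b replicate 3. The X minus autosomal difference turned to -0.196 points with at least 3 reads a site, -0.654 with 2 sites a tile, -0.437 with 300-bp tiles and -2.54 over all tiles, and ran from -1.08 to 0.703 over left-out libraries. The share at 20 to under 80% turned to 2.55 points without the 2 libraries of high X measure, and strand discordance ran from -0.0414 to 1.69 over left-out libraries. The cause was not tested. With a library left out the exact tests cannot go below 0.0571 (3 against 4) or 0.0952 (2 against 5). edgeR gave an unadjusted p under 0.05 to 74.3% of the 3113 tiles and limma to 93.4%. Of the values of single tiles and other measures recomputed, 527 kept their call or its absence, 92 lost it and 3 gained it. Sites under 3 reads in a library are not listed, so nothing can be said of them.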
